A study of Homo sapiens with 5 samples.

Results

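The genes described here are transcribed away from a nearby replication origin. Of 9944 transcription start sites (TSSs) listed by the authors, 830 lay within 50 kb of the nearest listed origin centre on the same chromosome and pointed away from it, and 828 of these had RNA polymerase II (RNAPII) values in all 3 TSS libraries. They are called co-directional genes below. They were chosen by position and strand only, among 9787 measured TSSs, of which 322 pointed towards an origin within 50 kb (head-on genes) and 8637 lay over 50 kb from any listed origin. RNAPII had been mapped by ChIP-seq against RPB1, its largest subunit, in untreated RPE1 cells, a human line from retinal pigment epithelium, immortalised with hTERT. All 3 groups share the background given in the labels, RPE1 iCas9 p53/puro-dKO, so p53 had been knocked out in every group, WT included. They are WT (3 libraries), CFAP20-KO (1 library) and CFAP20/CCNC-dKO (1 library), here also called the dKO. CFAP20 was first named for cilia and flagella, and CCNC is cyclin C of the Mediator kinase module. Whether a knockout line is 1 clone is not given in the labels. Only replicate 1 of each genotype covered TSSs. WT replicates 1 to 3 covered 100 kb on either side of origin centres, among them the 2040 listed ones. By the sample labels the RPB1 antibody of the WT libraries and that of both knockouts came from different suppliers, whereas the common protocol names 1 supplier only. CFAP20/CCNC-dKO cells were processed with less chromatin and less Drosophila spike-in chromatin. Antibody and genotype therefore cannot be told apart where either knockout is compared with WT, and chromatin input and genotype cannot be told apart where the dKO is compared with WT or with CFAP20-KO.

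Replication starts at origins, from which a pair of forks moves in opposite directions. A gene transcribed away from its origin is first entered by a fork that moves the same way as RNAPII, which is called co-directional, whereas a gene transcribed towards the origin meets a fork head-on. Head-on encounters are known for stalled forks and R-loops. In human cells origins are often found upstream of long, active genes. By its title, the series concerns what CFAP20 does in the nucleus during transcription and replication. Origins had been mapped by OK-seq, the sequencing of Okazaki fragments. The listed origins were selected, per the file name, to have nothing in the 5 kb before a TSS, so their position relative to genes is partly fixed by the authors' choice.

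Promoter sequence is shown for ANXA2, the co-directional gene with the highest WT promoter density, and for TMEM206, the one nearest to its origin above the density filter, since these mark the ends of what follows. The sequences come from hg38, run 5′ to 3′ on the strand of the gene from 200 bp before to 20 bp after the listed TSS, and carry in capitals every match to TATAAA (the TATA box), CCAAT (bound by the factor NF-Y), GGGCGG (the GC box), TGACGTCA (the cAMP response element, CRE), TGAGTCA (the AP-1 site) and the palindromic NRF1 site (the capitals nearest to the TSS in TMEM206) on either strand. ANXA2 lies on the minus strand at chr15:60397966-60398186 and TMEM206 on the minus strand at chr1:212414875-212415095.
ANXA2: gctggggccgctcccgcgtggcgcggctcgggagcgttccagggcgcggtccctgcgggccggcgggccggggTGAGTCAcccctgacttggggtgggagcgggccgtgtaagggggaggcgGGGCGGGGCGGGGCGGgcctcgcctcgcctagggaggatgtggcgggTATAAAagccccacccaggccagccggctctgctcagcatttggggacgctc
TMEM206: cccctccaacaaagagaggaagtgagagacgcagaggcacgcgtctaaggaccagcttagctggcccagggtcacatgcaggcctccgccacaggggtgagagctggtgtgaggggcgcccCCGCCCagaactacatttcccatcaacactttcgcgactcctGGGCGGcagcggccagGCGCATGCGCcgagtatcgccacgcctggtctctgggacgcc

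ANXA2 had a TATA box that started 31 bp before the TSS, 3 GC boxes that overlap each other and an AP-1 site. TMEM206 held an NRF1 site that started 21 bp before the TSS and 2 GC boxes, 1 of them on the other strand. Neither window held CCAAT or the CRE. The windows had 76.0% G and C in ANXA2 and 65.2% in TMEM206.

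Across all 828 co-directional genes the 300 bp around the TSS (250 bp before to 49 bp after) had a median of 61.5% G and C, against 53.0% in the 322 head-on genes and 53.3% over all measured TSSs. The median ratio of observed to expected CpG was 0.735, 0.421 and 0.400, in the same order. GC boxes were present in 56.5% of co-directional genes and in 36.8% of all TSSs, whereas TATA boxes were present in 9.54% and 14.51%. CCAAT was found in 33.6% and 36.6%, the CRE in 3.14% and 1.49%, the AP-1 site in 3.502% and 5.11%, and the NRF1 site in 1.21% and 0.715%. Among TSSs above the density filter described below, GC boxes were in 65.9% of co-directional genes, 44.95% of head-on genes and 52.5% of all. There the median ratio of observed to expected CpG was 0.808, 0.678 and 0.723, a smaller contrast than without the filter. The median share of G and C was 64.3%, 57.5% and 59.7%. These shares are descriptions of the letters in the window.

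The co-directional genes belonged to 729 of the 2040 listed origins. Of these origins 636 had 1 such gene, 87 had 2 and 6 had 3 or more. At 66 origins co-directional genes lay on both sides, 138 genes in all, and 88 origins also had a head-on gene. The median distance from TSS to origin centre was 13800.5 bp (quartiles 7004 and 25621.5 bp), and 308 genes lay within 10 kb. Head-on genes had a median distance of 24520 bp. Co-directional TSSs were most frequent 6 to 8 kb from the centre, with 77 TSSs, and numbered 10 between 22 and 24 kb. Head-on TSSs numbered 4 to 20 in each such 2-kb step. All origin centres stood on a grid of 250 bp, so distances below that are not resolved. An origin outside the selected table, placed from its name in the other deposited list, was nearer than the listed one for 10 of the 828 genes. At listed origins the centre differed from the position in the name by -17250 to 16500 bp (median 0), so this count is uncertain.

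**Figure D1:**
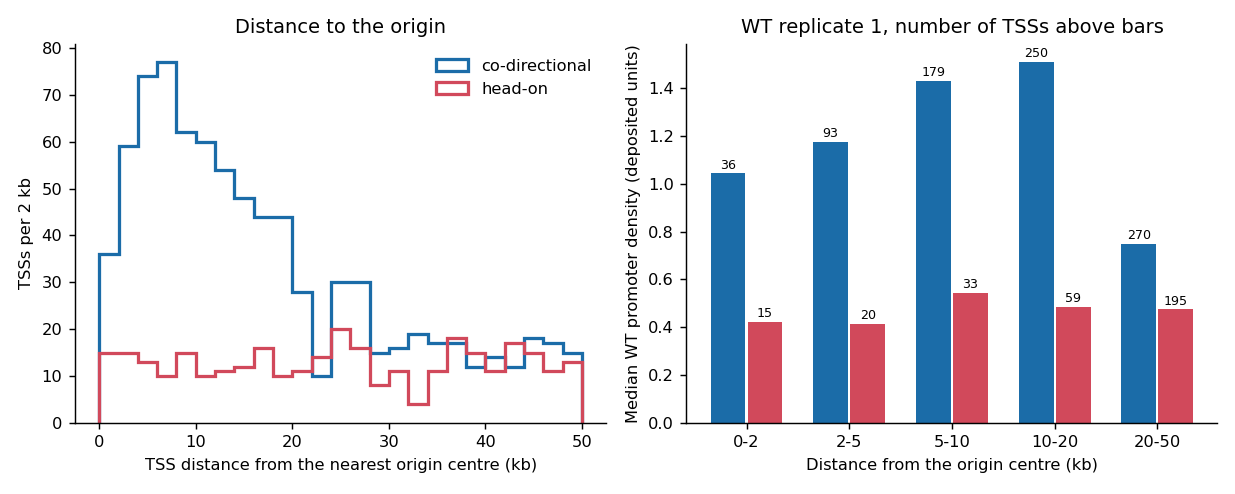
Left, number of co-directional (blue) and head-on (red) TSSs by distance from the nearest origin centre in steps of 2 kb. Right, median promoter density in WT replicate 1 by distance, with the number of TSSs above each bar; co-directional medians are above head-on medians in all 5 steps and are lowest at 20 to 50 kb (0.747).

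The co-directional genes were long and mostly protein-coding. Their median length was 36497 bp, against 10620.5 bp for head-on genes and 17214 bp over all TSSs. Genes over 100 kb made up 20.05% of them (166 genes), 1.86% of head-on genes and 8.34% of all. A head-on gene over 50 kb must span its origin, whereas a co-directional gene has no such bound. Of the 322 head-on genes, 87 were long enough to reach the origin. The contrast in length may thus partly follow from the rule and the listed origins, which was not tested. By GENCODE release 44, 693 (83.7%) were protein-coding and 127 (15.3%) were long noncoding RNA genes, against 58.7% and 37.6% of head-on genes. The listed TSS lay within 1 kb of an annotated transcript start of the same gene for 812. A BrU-seq value, the authors' WT measure of nascent transcription on a scale not given, was listed for 730 of them (88.2%), for 78.6% of head-on genes and for 64.4% of all TSSs. Its median was 1.03 in co-directional genes, 1.30 in head-on genes and 0.590 over all. Across the 730 genes, BrU-seq and WT promoter density had a Spearman correlation of 0.59, and BrU-seq and gene body density 0.59; these are correlations across genes that share 1 library, given with no test.

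In WT, promoters of co-directional genes were dense in RNAPII. Promoter density, the mean deposited density from -200 to 500 bp around the TSS, had a median of 1.23 (quartiles 0.431 and 1.92) in WT replicate 1. The median was 0.481 in head-on genes, 0.389 over 50 kb from an origin and 0.407 over all TSSs. Gene body density, from 2000 to 5000 bp, differed less, with medians of 0.427, 0.389, 0.356 and 0.361. A TSS was called above the filter where the mean promoter density of the 3 TSS libraries exceeded the median of 0.410. By this measure 645 of the 828 co-directional genes (77.9%) passed, 198 head-on genes (61.5%) and 49.99% of all TSSs. Of the 645, 613 also exceeded the value in WT replicate 1 alone, and 32 passed through the knockout libraries. The latter held for 26 of the 198 head-on genes and 750 of all 4891 TSSs above the filter.

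The average profile of co-directional genes peaked in the 100-bp step around 50 bp after the TSS, at 1.84 in WT. Upstream of the TSS, where RNAPII of the divergent direction is found, the profile had no separate peak. It rose towards the TSS, with 1.12, 1.25 and 1.35 at 250, 150 and 50 bp before it. Divergent RNAPII was thus not set apart from the main peak. Far from the TSS the profile ran at 0.419 upstream and 0.476 downstream. Head-on genes peaked at 1.35 and genes over 50 kb from an origin at 0.929. In CFAP20-KO the co-directional peak was 1.65, and in CFAP20/CCNC-dKO it was 1.15, while the density 2 to 5 kb into the gene was 0.510 and 0.486.

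**Figure D2:**
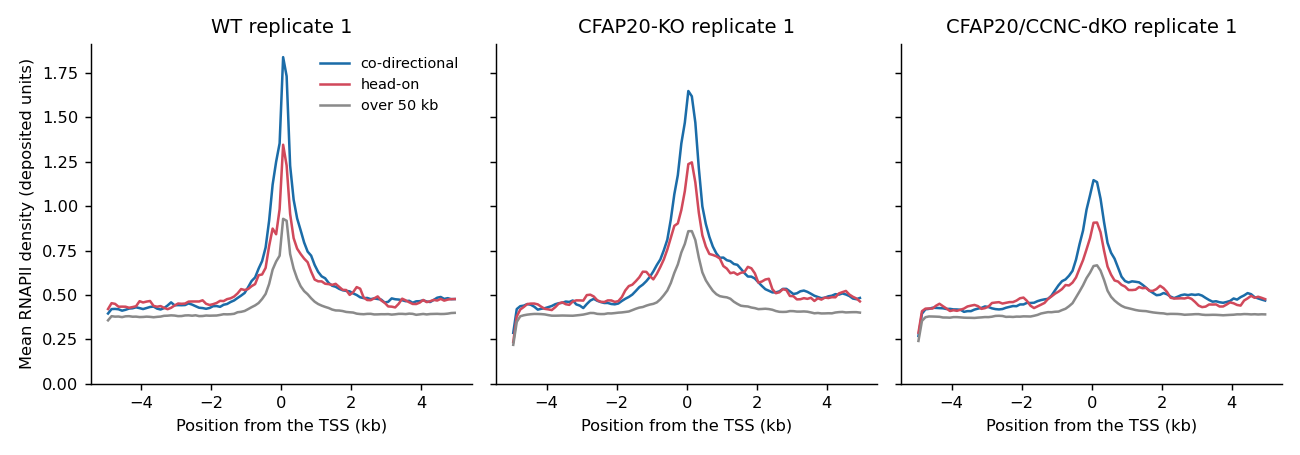
Mean RNAPII density in deposited units against position from the TSS in steps of 100 bp, for co-directional genes (blue), head-on genes (red) and TSSs over 50 kb from an origin (grey), in replicate 1 of each genotype. The co-directional peak is the highest of the 3 curves in each library, at 1.84 in WT, 1.65 in the CFAP20-KO library and 1.15 in the dKO. Typical fragment lengths differ (140, 300 and 320 bp), so peak heights are not measured alike between libraries.

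The 3 WT libraries allowed a check over replicates with the signal from origin windows. The median log2 ratio of promoter to flank density (flank, 2000 to 4500 bp on both sides) in co-directional genes was 1.36, 0.92 and 1.44 in replicates 1, 2 and 3. In head-on genes it was 0.22, 0.31 and 0.54. Every WT library had the higher value in co-directional genes, and the groups of 3 values did not overlap. The difference was 0.88 ± 0.27 (SD, n = 3), with p = 0.25 in an exact two-sided sign-flip test, the smallest value 3 libraries can give. The labels do not say whether the libraries came from separate cultures, so the spread may be technical. The promoter to gene body ratio gave 1.25, 0.89 and 1.32 in co-directional genes and 0.24, 0.31 and 0.57 in head-on genes, a difference of 0.78 ± 0.21 (SD, n = 3; exact p = 0.25). Among genes whose WT promoter density was above the median, these differences were 0.44 and 0.36, and with means in place of medians over all genes they were 0.53 and 0.47. Both alternatives made them smaller by over 1.5 times. In genes under 5 kb the gene body window runs past the end of the gene. These were 66 of the 322 head-on and 55 of the 828 co-directional genes, so the 2 classes are not measured quite alike.

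RNAPII density around the origin was uneven in the direction of the gene. At the 663 origins with co-directional genes on 1 side only, density from 5 to 50 kb on the gene side exceeded the opposite side by a median log2 ratio of 0.13, 0.08 and 0.19 in the 3 WT libraries, a mean of 0.14 ± 0.06 (SD, n = 3; exact two-sided sign-flip p = 0.25, the smallest possible). From 10 to 100 kb the mean was 0.09. A gene was required on that side, so this direction is partly fixed by the choice of genes. Within 1 to 5 kb of the centre the gene side was the higher in 346, 353 and 348 of the 663 origins. From 20 to 50 kb it was the higher in 403, 394 and 404 origins, and from 50 to 100 kb in 368, 362 and 373.

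**Figure D3:**
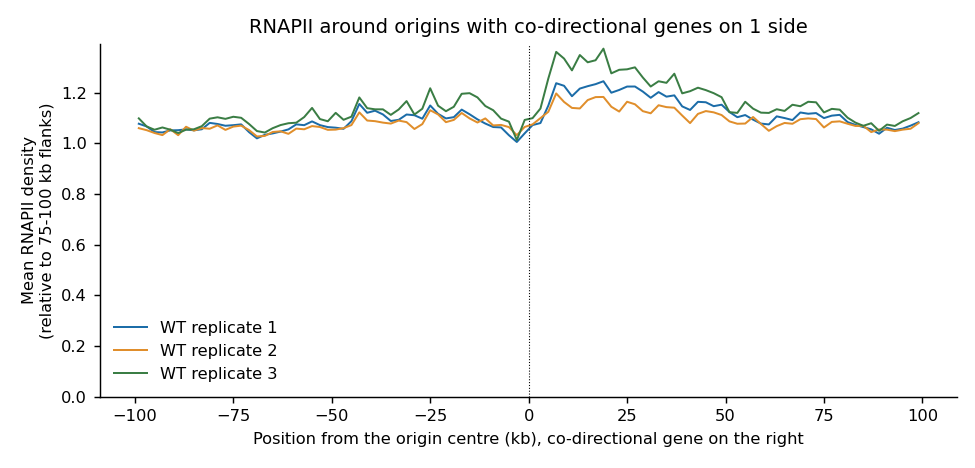
Mean RNAPII density around 663 origins with co-directional genes on 1 side, oriented with the gene on the right, in steps of 2 kb and relative to the library's median density 75 to 100 kb from the centre, for the 3 WT libraries. From 10 to 20 kb the gene side averages 1.22, 1.16 and 1.33, against 1.103, 1.097 and 1.17 on the other side.

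Promoter density varied with distance and gene length. In WT replicate 1 the median was 1.04 in the 36 co-directional genes within 2 kb of the origin, 1.17 in 93 genes at 2 to 5 kb, 1.43 in 179 genes at 5 to 10 kb and 1.51 in 250 genes at 10 to 20 kb. It was 0.747 in the 270 genes at 20 to 50 kb. In the same distance steps 58.3%, 82.8%, 86.03%, 84.4% and 67.4% passed the filter. The promoter to flank ratio at 20 to 50 kb was also the lowest of the 5 steps in all 3 WT libraries, at log2 values of 0.64, 0.63 and 0.93, against 1.58, 1.109 and 1.74 at 5 to 10 kb. Across the 828 genes the Spearman correlation of WT promoter density was -0.13 with distance and 0.29 with gene length, as descriptions.

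The co-directional gene with the highest promoter density was ANXA2, which encodes a calcium-dependent phospholipid-binding protein and starts at chr15:60397986, 7015 bp from its origin centre. Its promoter density was 7.47 in WT, 7.99 in the CFAP20-KO library and 4.996 in the dKO. To set replicates beside the knockouts, a relative density was formed by dividing by the library's median over the filtered TSSs within 50 kb of an origin. It was read from origin windows in the 3 WT libraries and from TSS windows in the knockouts, which have no origin windows here. In WT replicate 1, which has both, 0 of the 645 filtered co-directional genes differed past 1.5-fold between the windows. The relative density of ANXA2 was 5.87, 7.57 and 5.62 in WT replicates 1 to 3, 5.64 in the CFAP20-KO library and 4.87 in the dKO. The dKO library was below all 3 WT libraries and CFAP20-KO lay within their range. Its gene body density was 3.30 in WT, and no other gene of the 8 densest promoters exceeded 1.37.

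CALM2, a calmodulin gene, started 900 bp from its origin centre and had a promoter density of 6.18 in WT, 7.93 in the CFAP20-KO library and 4.62 in the dKO. FSCN1, the gene of the actin-bundling protein fascin, lay 37322 bp from its origin and had 6.16, 10.3 and 5.28. On the relative scale FSCN1 gave 3.94, 7.07 and 7.63 in the 3 WT libraries, so the CFAP20-KO value of 7.28 was inside the WT range although its deposited density was 1.67 times that of WT replicate 1 (95% interval 1.38 to 2.02). The next genes were LCOR, a transcriptional corepressor (5.05 in WT), SIRT1, an NAD-dependent deacetylase (4.86), SP3, a factor that binds GC boxes (4.70), DCUN1D1, which acts in neddylation (4.47), and SIAH1, a ubiquitin ligase (4.37). In CFAP20/CCNC-dKO they had 3.78, 3.08, 4.02, 3.30 and 2.44. All 8 of these dense promoters were lower in the dKO library than in WT replicate 1 as deposited, with ratios from 0.557 for SIAH1 to 0.856 for FSCN1. They were chosen as the densest in that WT library, and 65.5% of all TSSs above the filter were also lower. Relative to the typical ratio of those TSSs, SP3 and FSCN1 were not lower (log2 0.02 each).

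The genes nearest to an origin centre varied widely in density. TMEM206, which encodes a proton-activated chloride channel, started 106 bp from the centre and had a promoter density of 0.968 in WT, 0.656 in the CFAP20-KO library and 0.921 in the dKO. EMB, a partner of monocarboxylate transporters, started 134 bp away and had 2.62, 2.68 and 1.70. These distances are below the 250-bp grid, so the order of TMEM206 and EMB is not resolved. MYBL1, a MYB family transcription factor, had 1.62, 2.38 and 1.98, and ZNF267, a zinc finger gene, had 1.06, 2.57 and 0.993. ZNF267 relative densities in WT were 0.740, 1.08 and 1.00, below the 1.82 of CFAP20-KO and beside 0.968 in CFAP20/CCNC-dKO. CLIP4, a gene with CAP-Gly domains, had 2.90, 4.37 and 2.68, the noncoding RP11-471B22.3 had 2.44, 2.32 and 1.67, and ZNF256 had 0.762, 0.895 and 0.436.

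The longest co-directional genes above the filter were PARD3B (1074370 bp), a cell polarity gene, ATRNL1 (855368 bp), SPOCK1 (524051 bp), a proteoglycan gene, FBXL17 (523054 bp), an F-box gene, and RIMS1 (513691 bp), known from synaptic active zones. Their WT promoter densities were 1.21, 1.74, 1.39, 3.53 and 0.675. In ATRNL1 the promoter had 0.501 in CFAP20/CCNC-dKO, 0.288 times WT (95% interval 0.136 to 0.539), with 10.1 equivalent fragments. Its relative density there was 0.488, below the 1.08, 1.16 and 1.14 of the WT libraries, while CFAP20-KO had 1.22. The other 4 had intervals of the dKO to WT ratio that included 1, except FBXL17 (0.684, 95% interval 0.497 to 0.923).

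Origins with co-directional genes on both sides included 1 on chromosome 7 centred at 44596001. There the RNA helicase gene DDX56 and TMED4, a gene of vesicle traffic from the endoplasmic reticulum, point left and OGDH, the gene of a tricarboxylic acid cycle enzyme, points right. WT densities were 3.33, 2.67 and 1.98. In CFAP20-KO they were 3.20, 2.30 and 4.32, and in CFAP20/CCNC-dKO 1.74, 1.72 and 1.64. OGDH in CFAP20-KO was 2.19 times WT (95% interval 1.61 to 2.94), and its relative density of 3.05 lay above all 3 WT values (1.56, 1.45 and 1.79). Its flanks (0.36 in WT, 0.53 in CFAP20-KO) and gene body (0.44 and 0.81) were higher too. The part of this shift in the promoter ratio was not tested. On chromosome 9, SLC35D2 and ZNF367 faced HABP4 across an origin at 96431501, with WT densities of 2.53, 1.51 and 1.69. On chromosome 10, MCMBP, which binds the MCM replicative helicase, and SEC23IP lay on the 2 sides of an origin at 119879501 and had 2.96 and 2.60 in WT, compared with 2.15 and 1.95 in CFAP20/CCNC-dKO.

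Between genotypes, promoter density of the co-directional genes was close to WT in CFAP20-KO and lower in the dKO. With 1 library per genotype these are comparisons of libraries, with no replicate check and no test, and each library enters 2 of the 3 comparisons. The median promoter density of the 645 genes above the filter was 1.51 in WT, 1.51 in the CFAP20-KO library and 1.07 in the dKO. Their gene bodies had 0.454, 0.496 and 0.476. The median log2 promoter ratio was 0.06 in CFAP20-KO against WT, beside 0.16 in head-on genes and 0.13 over all TSSs above the filter. For CFAP20/CCNC-dKO against WT it was -0.38, beside -0.25 in head-on genes and -0.24 over all. The value of CFAP20/CCNC-dKO against CFAP20-KO was -0.45, beside -0.48 and -0.40. The promoter was lower in the dKO than in the WT library for 503 of the 645 genes (77.98%), against 65.5% of all TSSs above the filter. Gene body ratios were 0.08, 0.02 and -0.05 in the 3 comparisons. The promoter to gene body ratio was lower by a median log2 value of -0.43 in CFAP20/CCNC-dKO against WT and of -0.02 in CFAP20-KO against WT. The medians of this ratio in the 3 WT libraries, given above as 0.89 to 1.32, came from origin windows and all 828 genes, so their span is no measure of error for the -0.43.

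Counts past 1.5-fold were taken relative to the median ratio of all filtered TSSs. In CFAP20-KO against WT, 59 co-directional genes were higher (9.15%, background 15.7%) and 108 were lower (16.7%, background 16.6%). In CFAP20/CCNC-dKO against WT, 63 were higher (9.77%, background 18.7%) and 128 were lower (19.8%, background 16.6%). In CFAP20/CCNC-dKO against CFAP20-KO, 100 were higher (15.5%, background 20.8%) and 112 were lower (17.4%, background 17.5%). The shares lower were close to the background in 2 comparisons and above it in CFAP20/CCNC-dKO against WT, and the shares higher were below it in all 3 comparisons. A TSS under the filter value in WT passed only by being higher in a knockout. This held for 32 of the 645 co-directional genes and 750 of the 4891 filtered TSSs. The shares higher against WT and their background are therefore partly fixed by the filter, with and without centring. Without centring, 96 co-directional genes were higher (14.9%, background 22.1%) and 73 lower (11.3%, background 12.4%) in CFAP20-KO against WT. In CFAP20/CCNC-dKO against WT the uncentred counts were 37 higher (5.74%, background 11.2%) and 220 lower (34.1%, background 27.9%), and in CFAP20/CCNC-dKO against CFAP20-KO 44 higher (6.82%, background 10.5%) and 257 lower (39.8%, background 38.5%). A median promoter of the filtered co-directional genes held 172 equivalent fragments in WT, 19.8 in the CFAP20-KO library and 21.5 in the dKO, and 122, 14.4 and 16.6 over all filtered TSSs.

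Since co-directional promoters were denser than the rest, promoters of like density were set beside each other in 4 classes of mean density bounded by the quartiles of the co-directional genes. In the lowest class the median log2 ratio of CFAP20/CCNC-dKO against WT was -0.12 in co-directional genes (n = 161), 0.15 in head-on genes (n = 92) and 0.06 over 50 kb from an origin (n = 1943). In the second class it was -0.46, -0.51 and -0.40, in the third -0.45, -0.46 and -0.39, and in the highest -0.41, -0.35 and -0.38. The difference between co-directional and head-on genes was -0.14 as they are and -0.07 as the mean over the 4 classes, an alternative chosen after seeing the data. With origins within 20 kb only it was -0.32, with density not matched and few head-on genes above the filter. These numbered 5, 11, 24 and 37 at 0 to 2, 2 to 5, 5 to 10 and 10 to 20 kb. Their dKO to WT medians were 0.37, -0.10, 0.07 and -0.24. For CFAP20-KO against WT the difference between co-directional and head-on genes was -0.10 as they are and -0.06 over the classes. It was -0.04 with no filter on density and -0.055 with each density divided by its flank. On the scale relative to each library's median, the same difference was -0.04, 0.04 and 0.03 between pairs of WT libraries, -0.09 in the CFAP20-KO library and -0.14 in the dKO against WT replicate 1. It was 0.03 in CFAP20/CCNC-dKO against CFAP20-KO. No test of these differences was possible. The filter also bears on those against WT, since 26 of 198 head-on and 32 of 645 co-directional genes passed only through the knockout libraries.

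**Figure D4:**
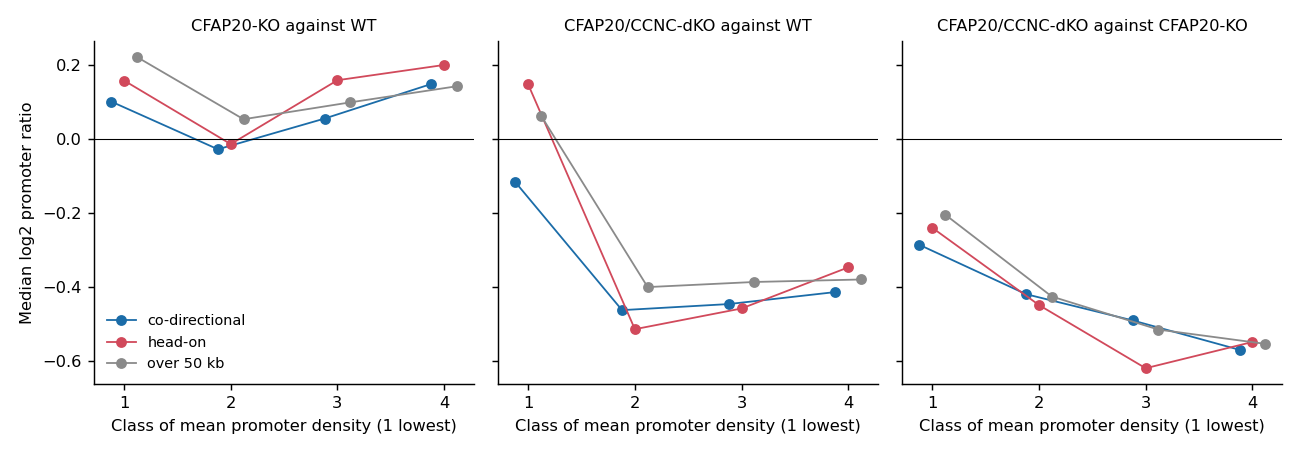
Median log2 promoter ratio in 4 classes of mean promoter density (1 lowest, bounds at the quartiles of co-directional genes) for co-directional genes (blue), head-on genes (red) and TSSs over 50 kb from an origin (grey), in the 3 genotype comparisons; symbols are offset sideways. In CFAP20/CCNC-dKO against WT the co-directional median is -0.12 in the lowest class and between -0.41 and -0.46 in the other 3 classes.

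Over the 5 distance steps the dKO to WT median log2 ratio of co-directional promoters was -0.42, -0.38, -0.42, -0.45 and -0.26, from the nearest to the farthest. Over 3 length classes, cut at 25735.3 and 67221.7 bp, it was -0.28, -0.43 and -0.44 with 215 genes each, and -0.19, -0.24 and -0.27 in genes over 50 kb from an origin. The shortest class and the farthest step had the values nearest to 0.

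Between libraries of the same genotype, single promoters also differed. The background in this and the next paragraph is the 843 filtered TSSs within 50 kb of an origin. It includes the 645 co-directional genes, so the 2 shares are bound to be alike. In the 198 head-on genes the shares were 25.3%, 21.7% and 34.9% in the WT pairs, in the order below. They were 28.8% in each knockout against WT replicate 1. Past 1.5-fold in relative density were 134 of 645 co-directional genes (20.8%, background 21.8%) between WT replicates 2 and 1, 133 (20.6%, background 20.9%) between 3 and 1, and 192 (29.8%, background 31.0%) between 3 and 2. Past the same fold were 149 genes (23.1%, background 24.4%) in CFAP20-KO and 155 (24.03%, background 25.1%) in CFAP20/CCNC-dKO, each against WT replicate 1. For CFAP20/CCNC-dKO against CFAP20-KO it was 195 (30.2%, background 31.7%). The share of each knockout against WT replicate 1 was above those of WT replicates 2 and 3 against replicate 1. It was below that of WT replicate 3 against 2. These differences were not tested.

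A stricter count, made after the ratios were seen, asked for a value 1.5-fold beyond all 3 WT libraries. Of the 198 filtered head-on genes, 8.59% were above and 5.56% below in CFAP20-KO, and 8.59% above and 2.53% below in CFAP20/CCNC-dKO. Among these 198, 26 passed the filter only through the knockout libraries. In CFAP20-KO, 24 co-directional genes were above (3.72%, background 4.86%) and 37 below (5.74%, background 5.69%). In CFAP20/CCNC-dKO, 28 were above (4.34%, background 5.34%) and 33 below (5.12%, background 4.51%). In both knockouts 7 genes were above (1.09%, background 1.54%), namely CTB-31N19.5, DEFB134, HACD1, MELK, PCYT1B, SH3RF2 and ZNF367. Of these 7, CTB-31N19.5, DEFB134 and PCYT1B were under the filter value in WT and passed only through the knockout libraries in which they were then counted as higher. The same held for 5 of the 24 above in CFAP20-KO and 9 of the 28 above in CFAP20/CCNC-dKO. In both 8 were below (1.24%, background 1.19%), namely CLIP2, ESYT2, GCC1, GPCPD1, PNPLA8, TCP11L2, TTC26 and WDR60. MELK, a kinase of dividing cells, had a promoter density of 1.92 in WT, 3.00 in the CFAP20-KO library and 2.07 in the dKO, and relative densities of 1.25, 0.882 and 0.833 in WT against 2.12 and 2.02. ESYT2, which tethers the endoplasmic reticulum to the plasma membrane, had 3.82, 1.91 and 1.21, and relative densities of 2.83, 2.14 and 2.21 in WT against 1.35 and 1.18. Of the 8 genes below, 7 lay in chromosome segments where the flanks of neighbouring TSSs were also low in both knockouts (a running median of 21 TSSs past a log2 value of -0.5), as did 35 of the 828 co-directional genes. TCP11L2 was the exception. The part of these segments in the result was not tested.

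Ratios of single genes were ranked where the higher library held at least 10 equivalent fragments (coverage divided by what 1 fragment adds) and its promoter density was at least 1.5 times its flank. Among 558 such genes, the 5 lowest ratios of CFAP20-KO against WT were those of CPZ, WDR60, COX6C, TTC26 and GINS1. WDR60 and TTC26 serve intraflagellar transport in cilia. WDR60 starts at chr7:158856578 and had a promoter density of 1.32 in WT, 0.150 in the CFAP20-KO library and 0.401 in the dKO. Its flanks had 0.360, 0.149 and 0.115. TTC26 starts at chr7:139133778 and had 1.32, 0.252 and 0.358 at the promoter and 0.326, 0.148 and 0.197 in the flanks. GINS1, a subunit of the replicative helicase, starts at chr20:25407727 and had 1.57, 0.310 and 0.654, with flanks of 0.464, 0.259 and 0.225. All 3 lay in segments of low flank density in both knockouts. On the relative scale GINS1 had 1.18, 1.55 and 0.810 in the WT libraries, 0.219 in the CFAP20-KO library and 0.638 in the dKO, so both knockouts were below the WT range.

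COX6C, a subunit of cytochrome c oxidase, had 0.935 in WT, 0.153 in the CFAP20-KO library and 0.801 in the dKO, on 107, 2 and 16.2 equivalent fragments. Its CFAP20-KO to WT ratio was 0.163 (95% interval 0.0195 to 0.604), and its flanks (0.342, 0.478 and 0.308) were not low in CFAP20-KO. CPZ, a carboxypeptidase gene, had 0.813, 0.0280 and 0.583. With 0.367 equivalent fragments in CFAP20-KO no ratio is given, only an upper 95% limit of 0.424 times WT. CPZ and COX6C also gave the highest values of CFAP20/CCNC-dKO against CFAP20-KO, where COX6C was 5.25 times higher (95% interval 1.24 to 47.0). The relative densities of CPZ were 0.565, 0.608 and 0.524 in WT and 0.568 in CFAP20/CCNC-dKO, so the CFAP20-KO library alone stood apart.

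The 5 highest ratios of CFAP20-KO against WT were those of RSPO2, BEND7, PCYT1B, RP11-161I6.2 and CTB-31N19.5. All but RP11-161I6.2 were under the filter value in WT and passed only through the knockout libraries, so a higher value there was a condition of their being ranked. All had WT promoter densities of at most 0.429, and that of RP11-161I6.2 (flank 0.362) was the only one above its flank. RSPO2, which encodes a Wnt signalling agonist, had 0.252 in WT, 1.05 in the CFAP20-KO library and 0.451 in the dKO. The CFAP20-KO value rests on 13.7 equivalent fragments and the ratio of 4.15 has a 95% interval from 2.01 to 8.17. The relative densities of RSPO2 in WT were 0.188, 0.662 and 0.464, against 0.738 in CFAP20-KO, so WT replicate 2 came close to it. PCYT1B, of phosphatidylcholine synthesis, had 0.265, 0.814 and 0.380, and BEND7 had 0.215, 0.768 and 0.299.

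The highest ratios of CFAP20/CCNC-dKO against WT, with 569 eligible genes, were those of AC104024.1, SH3RF2, NDST1, HACD1 and OVAAL. SH3RF2 had a promoter density of 1.12 in WT, 2.67 in the CFAP20-KO library and 2.66 in the dKO. Its dKO to WT ratio was 2.39 (95% interval 1.70 to 3.31). HACD1, of very long-chain fatty acid synthesis, had 1.398, 3.15 and 3.14, and its ratio was 2.25 (95% interval 1.65 to 3.02). The relative densities of HACD1 were 1.07, 1.24 and 0.929 in WT, 2.22 in the CFAP20-KO library and 3.06 in the dKO. Flank density was higher in the knockouts at both genes, with 0.472 in WT, 0.942 and 0.682 at SH3RF2, and 0.290, 0.5999 and 0.699 at HACD1. The part of this shift in the promoter ratios was not tested. NDST1, of heparan sulfate synthesis, had 0.557, 1.19 and 1.30 at the promoter and 0.680, 0.888 and 0.795 in the flanks, so its WT promoter was below its flanks. The noncoding genes AC104024.1 and OVAAL were at 0.272 and 0.332 in WT, under the filter value, and passed the filter only through the knockout libraries.

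The lowest ratios of CFAP20/CCNC-dKO against WT were those of ZNF543, PNPLA8, IL17RD, SIX4 and CTTNBP2. IL17RD, an inhibitor of fibroblast growth factor signalling at chr3:57165375, had 1.19 in WT, 1.22 in the CFAP20-KO library and 0.124 in the dKO. Its dKO to WT ratio was 0.104 (95% interval 0.0171 to 0.341) and its flanks were at 0.382, 0.446 and 0.363. Its relative densities were 0.784, 0.853 and 0.571 in WT and 0.121 in CFAP20/CCNC-dKO. SIX4, a homeobox gene at chr14:60724134, had 1.94, 1.46 and 0.398, a ratio of 0.205 (95% interval 0.0876 to 0.410). ZNF543 had 1.54, 0.913 and 0.102, and PNPLA8, a phospholipase gene, had 1.88, 0.959 and 0.177. ZNF543, PNPLA8 and CTTNBP2 lay in segments of low flank density in both knockouts.

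In CFAP20/CCNC-dKO against CFAP20-KO, with 557 eligible genes, RIMKLA, IL17RD, ZNF543, ZNF782 and ANKS6 were lowest. ZNF782 had 1.49 in WT, 1.86 in the CFAP20-KO library and 0.316 in the dKO, and ANKS6, known for its part in renal cilia, had 1.57, 2.21 and 0.411. For both, the 3 WT libraries (0.969, 1.103 and 0.732 for ZNF782, 1.002, 1.103 and 1.107 for ANKS6, relative scale) were above the dKO values of 0.308 and 0.400. RIMKLA held 0.250 equivalent fragments in CFAP20/CCNC-dKO, which limits its ratio to at most 0.285 times CFAP20-KO. Its WT densities were not stable, at 0.309, 0.333 and 0.0714 on the relative scale. OVAAL, the pseudogene HIATL2, whose reads may be shared with related copies, and NPPC were, after CPZ and COX6C, the highest in this comparison, on 2.03, 3.30 and 3.03 equivalent fragments in CFAP20-KO.

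**Figure D5:**
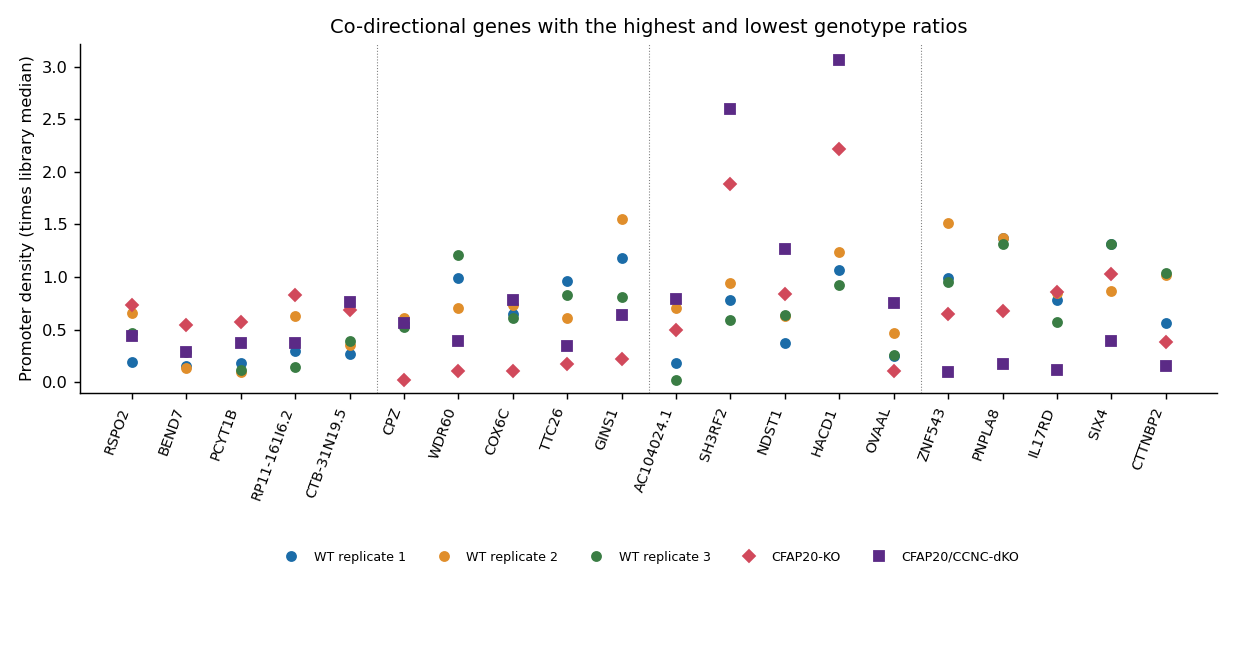
Promoter density relative to the library median of filtered TSSs near origins for the 5 co-directional genes with the highest and the 5 with the lowest ratio in CFAP20-KO against WT (left pair of panels) and in CFAP20/CCNC-dKO against WT (right pair), in 3 WT libraries (circles), CFAP20-KO (diamonds) and CFAP20/CCNC-dKO (squares). The genes were picked by these ratios; SH3RF2 and HACD1 are above the WT libraries in both knockouts.

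Gene families and pathways were sampled thinly by the rule. Their calls past 1.5-fold are relative to the median ratio, as above, and the background in parentheses is the share of all filtered TSSs. Of 16 measured replication origin and fork genes, 3 were co-directional: GINS1, MCM3 and MCM10. MCM3, a subunit of the replicative helicase, had 1.18 in WT, 1.67 in the CFAP20-KO library and 0.812 in the dKO, and MCM10, which helps to activate it, had 0.441, 1.02 and 0.530. Against WT, 1 of the 3 was past 1.5-fold higher (background 15.7%) and 1 lower (background 16.6%) in CFAP20-KO, and 1 was lower in CFAP20/CCNC-dKO (background 16.6%). Of 12 R-loop and DNA repair genes, RNASEH2B, a subunit of the RNase that cleaves RNA in RNA-DNA hybrids, had 2.33, 2.10 and 1.30, and XPA, of nucleotide excision repair, had 1.84, 1.49 and 1.61. Neither passed 1.5-fold relative to the median ratio. Of 12 cyclin and mitosis genes, CDK1 (1.65, 1.12 and 1.33) and CENPF (1.02, 0.725 and 1.04) were both past 1.5-fold lower in CFAP20-KO against WT (background 16.6%). Both calls came from the centring, since the CFAP20-KO densities as deposited were 0.677 and 0.712 times WT, with 95% intervals that included 1 (0.368 to 1.15 and 0.325 to 1.38).

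Of 9 cilium genes, TMEM67, of the ciliary transition zone, had 0.988, 0.933 and 0.673, and DYNC2H1, the heavy chain of the dynein of intraflagellar transport, had 0.872, 0.587 and 0.290 and was past 1.5-fold lower in both knockouts against WT (background 16.6% in each), in CFAP20-KO only after centring (0.674 times WT as deposited). MED27, 1 of 7 Mediator genes, had 0.873, 1.01 and 0.487. INTS1, of the Integrator complex and 1 of 7 pausing and elongation genes, had 2.01, 1.70 and 1.79. IFIT2, of 13 interferon response genes, had 1.51, 1.57 and 1.23, and LOX, of 9 matrix genes, had 2.52, 3.52 and 2.58. None of 15 immediate early genes and none of 7 heat shock genes was co-directional, whereas 4 and 1 were head-on.

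Larger families gave more members. Of 223 zinc finger genes 17 were co-directional and 15 passed the filter, with WT promoter densities from 0.00313 to 2.47 and a median of 1.49. ZNF131 had 2.31, 3.52 and 1.93, and ZNF777 had 2.14, 0.778 and 0.510. Of the 15, against WT, 2 were past 1.5-fold higher (background 15.7%) and 5 lower (background 16.6%) in CFAP20-KO, and 0 higher (background 18.7%) and 3 lower (background 16.6%) in CFAP20/CCNC-dKO. Of 130 solute carrier genes 10 were co-directional and 8 passed, led by SLC4A7, a bicarbonate transporter gene (3.11 in WT, 2.55 in the CFAP20-KO library and 1.59 in the dKO). None was past 1.5-fold in CFAP20-KO against WT and 2 of the 8 were lower in CFAP20/CCNC-dKO (background 16.6%). All 11 co-directional genes of the ubiquitin pathway, of 82 measured, passed the filter, with 2 lower in CFAP20-KO (background 16.6%), and 3 lower (background 16.6%) and 1 higher (background 18.7%) in CFAP20/CCNC-dKO. USP47, a deubiquitinase gene, had 3.53, 3.63 and 2.38, and USP1, a deubiquitinase of DNA repair, had 2.64, 2.15 and 0.986. The single proteasome gene, PSMD12, had 1.81, 0.684 and 0.679 and was lower in both (background 16.6% in each).

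Of 15 kinesin genes 4 were co-directional, with a median of 1.55 in WT. KIF14 was the only co-directional kinesin past 1.5-fold in any of the 3 comparisons (higher in CFAP20/CCNC-dKO against WT, background 18.7%, and only after centring), at 0.960 in WT, 1.13 in the CFAP20-KO library and 1.27 in the dKO. Of 34 ribosomal protein genes, RPS14, MRPL39 and MRPL45 had 3.17, 1.47 and 0.910 in WT, compared with 2.27, 0.842 and 0.460 in CFAP20/CCNC-dKO. Of 74 transmembrane protein (TMEM) genes 10 were co-directional, led by TMEM64 (3.26, 3.94 and 2.45), with 1 higher (background 15.7%) and 2 lower (background 16.6%) in CFAP20-KO and 1 lower (background 16.6%) in CFAP20/CCNC-dKO against WT. Of 21 Rab genes, RAB28 (1.53, 0.971 and 1.12) was lower in CFAP20-KO (background 16.6%) and RAB42 (0.640, 0.707 and 0.384) did not pass 1.5-fold. The EIF symbols gave EIF2B5-IT1 only, a noncoding gene under the filter (0.336 in WT). By symbol, 125 co-directional genes were noncoding or clone-named, 3.57% of 3504 measured, and 54 of them passed the filter. Of these 54, 10 were past 1.5-fold higher (background 15.7%) and 6 lower (background 16.6%) in CFAP20-KO against WT, and 14 were higher (background 18.7%) and 6 lower (background 16.6%) in CFAP20/CCNC-dKO against WT.

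Few markers of cell type were co-directional. RLBP1, of retinal pigment epithelium, had 0.391 in WT beside a flank of 0.265, and LUM, of mesenchymal cells, had 0.309 beside 0.321. Over all TSSs, 2 of 6 retinal pigment epithelium markers passed the filter, OTX2 (1.67 in WT) and MITF (0.539). RPE65, at 0.416 in WT and 0.112 in the CFAP20-KO library, did not pass. Of the mesenchymal markers 5 of 6 passed. Among these, COL1A2 (0.339 in WT, flank 0.467) and DCN (0.315, flank 0.404) passed only through the knockout libraries. Of the leukocyte markers 1 of 5 passed (CD8A, 0.421), and of the neuronal markers 1 of 2 (SNAP25, 1.05 in WT and 0.148 and 0.119 in the knockouts). No TSS of CFAP20 or CCNC was measured, so the knockouts could not be checked at their targets.

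The limit of 50 kb cut through genes of unlike density. Just inside were POLE4, a subunit of DNA polymerase epsilon (49991 bp, 3.53 in WT), KIAA1210 (49422 bp, 0.291) and APLNR, the apelin receptor gene (49187 bp, 0.265). Just outside were SMAD7, an inhibitor of TGF-beta signalling (50290 bp, 2.02), MAVS, of antiviral signalling (50342 bp, 2.68), and NT5E, an ectonucleotidase gene (50590 bp, 3.52).

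Over all TSS windows the WT library held 7008384.5 equivalent fragments, CFAP20-KO 840866 and CFAP20/CCNC-dKO 1180544. The typical ratio of all filtered promoters was 0.13 in CFAP20-KO against WT, -0.24 in CFAP20/CCNC-dKO against WT and -0.40 in CFAP20/CCNC-dKO against CFAP20-KO (log2), which is the centre of the 1.5-fold counts. The 95% intervals are exact (Clopper-Pearson), were computed from equivalent fragments and cover counting error only.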

How the data were processed

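The files hold RPB1 ChIP-seq coverage of 5 libraries: TSS windows of 3 (replicate 1 of WT, CFAP20-KO and CFAP20/CCNC-dKO) and origin windows of the 3 WT libraries. The authors deposited signal (read density, coverage) in bins of 10 bp over 5 kb on either side of a TSS, and of 200 bp over 100 kb on either side of an origin. TSS files are spike-in normalized, per the file names; the normalization of origin files is not given in the sources used here. Reads were mapped to hg38 and to the Drosophila genome BDGP6, per the labels. The submitters' processing notes list, with no role, R 4.0.5, BWA 0.7.17, HOMER 4.8.2, Trim Galore 0.6.5, STAR 2.7.7a, FastQC 0.11.9 and SAMtools 1.11. The BrU-seq signal is the authors' pooled WT value. Of the columns with per-sample values, 2 stayed unused.

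Promoter (-200 to 500 bp), gene body (2000 to 5000 bp) and flank (2000 to 4500 bp on both sides) densities were averaged with Python 3.11.15, numpy 2.4.6, scipy 1.17.1, pandas 2.3.3, pysam 0.24.0 and matplotlib 3.10.9. Ratios are log2 after adding a pseudocount of 0.0425 (10% of the median over promoters); the relative scale used a constant of 0.1. Fragments were recovered from coverage steps (0.0444, 0.181 and 0.110 in WT, CFAP20-KO and CFAP20/CCNC-dKO) and typical lengths of 140, 300 and 320 bp. Genes were kept for ratios above a mean promoter density of 0.410. WT classes were compared with an exact two-sided sign-flip test over 3 libraries; genotypes, with 1 TSS library each, were not tested. The code was tested on simulated data. Promoter sequence came from the hg38 genome and gene types from GENCODE release 44.

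The members and gene lists were chosen with earlier results of these data known. Named genes were the 8 densest in WT, the 8 nearest to an origin, the 5 highest and 5 lowest ratios per comparison, the 3 on each side of 50 kb, up to 4 members per list in order of WT density, the 5 longest, and those of the 3 densest origins with genes on both sides. Alternatives changed the promoter window, the density filter, the pseudocount, the scaling, the distance limit, the segments used and the WT libraries. Some of these genes, sequences and lists are not reported here.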

Additional observations from a re-analysis of the deposited data

How the results depend on the processing

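Over 21 results and 134 alternatives, 111 values were classed as the same, 18 as moved and 5 as changed in sign. The same class did not always mean a small move. It holds WT differences between co-directional and head-on genes that moved by more than their SD. With means, and among genes above the WT median, promoter over flank went from 0.88 (SD 0.27) to 0.53 and 0.44. Promoter to gene body went from 0.78 (SD 0.21) to 0.47 and 0.36. Genotype medians have no replicate spread of their own, so for them the classes are no measure of error. Among the 111, the promoter median of CFAP20-KO against WT, 0.06 as reported, was 0.0 with no filter, 0.0004898 with flank scaling and 0.03 within 20 kb; at 0.0 it has no direction. The promoter to gene body ratio of CFAP20-KO against WT was 0.01 (0.006525) with the wider promoter window. Dividing by flank density gave a gene body median of 0.005354 for CFAP20/CCNC-dKO against CFAP20-KO. In that comparison the difference between co-directional and head-on promoters was -0.14 with no filter on density, -0.031 with flank scaling and -0.13 with origins within 20 kb, against 0.03 as reported. The cause was not tested.

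The gene body median of CFAP20-KO against WT moved to 0.05 (0.04916) with no filter, 0.02 (0.01851) with flank scaling, 0.12 (0.1175) within 20 kb and 0.12 (0.1229) without the segments, and that of CFAP20/CCNC-dKO against CFAP20-KO to -0.089 within 20 kb. Promoters at least 1.5-fold higher in CFAP20-KO against WT numbered 36 with the wide window, 128 with no filter, 35 within 20 kb and 96 without centring, and lower ones 69 with the wide window. For CFAP20/CCNC-dKO against WT, 100 were higher with no filter, 32 within 20 kb and 37 without centring, and 220 were lower without centring. In CFAP20/CCNC-dKO against CFAP20-KO, 64 were higher within 20 kb and 44 without centring, and 226 were lower with no filter and 257 without centring. No filter adds genes, and the 20 kb limit leaves 463.

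Leaving out 1 WT library at a time gave differences between co-directional and head-on genes of 0.75 to 1.02 for promoter over flank and 0.67 to 0.88 for promoter to gene body, and 0.11 to 0.16 for the gene side of the origin. No paired analysis was possible because the genotypes share only replicate number 1. Depth limits single genes: a median filtered promoter held 19.8 equivalent fragments in CFAP20-KO, with 21.5 in CFAP20/CCNC-dKO.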
